A study of Homo sapiens with 12 samples.

Results

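Ribosome footprints on 59 transcript rows were more than 2-fold lower after 10 µM girolline than in either of 2 DMSO controls. Genes of the HSP70 chaperone family (HSPA1A, HSPA1B, HSPA8, HSPA6 and HSPA2) gave or adjoined 17 of these rows. Many of the 17 share reads, and they fall in 4 of the 32 loci into which the members were grouped. Reads from other HSP70 genes may be part of the HSPA6 and HSPA2 values, which was not tested. The share of HSP70 rows among all rows was not counted. Member rows outside the family included EIF5, which encodes a translation initiation factor, TNFRSF10D, a decoy receptor of the death ligand TRAIL, and genes of mitochondrial energy metabolism. A row is a transcript of the deposited monosome tables, or several transcripts merged because their counts were identical. Members were thus chosen by the 10 µM and DMSO monosome values: a row qualified when its mean over the 4 monosome libraries was at least 10 CPM, the usual scaling of a count by its library total, and its 10 µM value lay more than 1 below both DMSO values on the log2(CPM + 0.1) scale. Of 58798 rows with a coding length, 16518 reached 10 CPM, and the 59 members were 0.357% of these.

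The cells were HEK293T Flp-In, a wild-type line derived from human embryonic kidney that carries a built-in docking site for transgenes. They received the solvent DMSO, girolline at 1 µM or girolline at 10 µM for 2 h, and the labels name no other agent. Each of 3 kinds of library (RNA-seq of poly(A) RNA, monosome footprints, disome footprints) held 2 DMSO libraries and 1 library per dose, 12 in all. Nothing in the labels tells whether the 2 DMSO libraries were separate cultures, so the p-values below speak only for the variation between these libraries, and it may be technical.

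Monosome footprints are RNA fragments protected by single ribosomes, and disome footprints are longer fragments protected by a pair of neighbouring ribosomes. Girolline is a compound from a marine sponge that the series title links to eIF5A, a factor that assists peptide bond formation at slow positions and peptide release at stop codons. HSP70 proteins bind unfolded stretches of other proteins and let go of them in a cycle driven by ATP. HSPA8 is the constitutive cytosolic form, HSPA1A and HSPA1B are the main inducible forms, HSPA6 is a strictly inducible form and HSPA2 is best known from the testis.

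Merged monosome totals were 23210826 and 27658012 counts under DMSO, 17067875 at 1 µM and 30368527 at 10 µM. The lowest count of a member row in any library was 155. Disome totals were lower, from 2648836 to 4984625, and RNA-seq totals ran from 23129552 to 34232074. The DMSO pair differed by more than sampling noise in each kind, with a chi-square per degree of freedom of 1.69 in monosome, 6.47 in RNA-seq and 2.11 in disome libraries.

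The tables hold no gene names. Symbols were given to 14 member rows whose Ensembl transcript ID is a known product of the gene and whose coding length equals that of the known protein plus its stop codon. Another 20 rows lay at most 25 table rows from a named row and, where they are its isoforms, repeat its reads. The last 25 rows formed 19 groups with no name. Counted as loci in this way, the 59 rows fell into 32 loci, 22 of them with a single row. Isoform rows share reads, so rows of a locus are not separate observations.

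All named genes but TNFRSF10D are placed here on the following stretches of RefSeq's GRCh38.p14 annotation. HSPA1A spans chr6:31815543-31817942 and its near-identical neighbour HSPA1B spans chr6:31827738-31830254. HSPA8 spans chr11:123057489-123062462, HSPA6 chr1:161524540-161526894 and HSPA2 chr14:64535905-64543237. EIF5 spans chr14:103334237-103345025 and ATN1 chr12:6924459-6942321. COX6A1 spans chr12:120438113-120440730, ATP5MC1 chr17:48892787-48895871, NNT chr5:43602675-43707396 and MTIF2 chr2:55236595-55269248. CDC42BPA spans chr1:226989858-227318492 and PPDPF chr20:63520741-63522206. All counts refer to coding regions.

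The inducible HSP70 genes are textbook targets of heat shock factor 1, which binds inverted repeats of GAA. The 250 bases before each start site in RefSeq's GRCh38.p14 promoter table were searched for GAANNTTC and TTCNNGAA, each of which reads the same on both strands. Among the 12 named genes with an entry, 5 held a match, against 11.6% of 35116 promoters. They were HSPA1A, HSPA1B, HSPA6, HSPA8 and MTIF2, and neighbouring matches overlap in HSPA6 and HSPA8. The motif was chosen with the HSP70 genes in mind, so their matches could be foreseen. HSPA1A and HSPA1B are near-identical copies, and MTIF2 was the only gene outside the family with a match. The share with a match is therefore no trait of the members. The stretches below show the HSP70 promoters with a match, written 5′ to 3′ on the gene's strand, with the matched letters in capitals; they lie at chr6:31815422-31815459, chr6:31827618-31827655, chr1:161524345-161524493 and, on the minus strand, chr11:123062164-123062381.
HSPA1A: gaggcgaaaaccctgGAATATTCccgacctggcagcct
HSPA1B: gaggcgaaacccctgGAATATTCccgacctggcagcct
HSPA6: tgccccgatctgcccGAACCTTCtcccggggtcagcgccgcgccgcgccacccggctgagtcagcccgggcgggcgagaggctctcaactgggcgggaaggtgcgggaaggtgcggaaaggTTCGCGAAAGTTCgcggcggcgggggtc
HSPA8: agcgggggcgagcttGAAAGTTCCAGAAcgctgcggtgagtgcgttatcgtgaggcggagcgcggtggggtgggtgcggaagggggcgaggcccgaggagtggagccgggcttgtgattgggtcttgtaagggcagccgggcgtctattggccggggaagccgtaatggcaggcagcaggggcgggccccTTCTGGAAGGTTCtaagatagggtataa
These letters describe the promoters and are not measured binding. HSPA2 held no match in its window, nor did EIF5, ATP5MC1, COX6A1, CDC42BPA, NNT or PPDPF.

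HSPA1A had 1349.6 and 1377.2 monosome CPM under DMSO, 1385.4 at 1 µM and 472.5 at 10 µM, 2.89-fold lower than under DMSO. HSPA1B had 1394.1 and 1426.8 CPM under DMSO, 1438.7 at 1 µM and 491.8 at 10 µM. The 1 µM library lay slightly above both DMSO libraries for each gene, and the 10 µM library far below all others. The 2 genes encode nearly the same protein, and the handling of reads that match both was not given in the sources used here, so their counts cannot be taken as separate. A row of 477 codons between them had 964.7 and 986.7 CPM under DMSO, 981.8 at 1 µM and 328.6 at 10 µM.

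HSPA8 had 1228.3 and 1236.8 CPM under DMSO, 1052.2 at 1 µM and 474.5 at 10 µM, 2.60-fold lower at the higher dose. Here the 1 µM library already lay below both DMSO libraries. HSPA6, at a much lower level, had 19.8 and 17.1 CPM under DMSO, 12.2 at 1 µM and 5.17 at 10 µM, the largest fold among the members at 3.51. HSPA2 had 34.0 and 31.6 CPM under DMSO, 30.2 at 1 µM and 14.8 at 10 µM, 2.21-fold lower. In both genes the 1 µM library was the lower neighbour of the DMSO pair and the 10 µM library stood apart.

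HSPA6 and HSPA2 share stretches of sequence with the abundant HSP70 mRNAs, and their footprints outnumbered their RNA-seq counts. HSPA6 had 459 and 472 monosome counts under DMSO beside 5 and 14 RNA-seq counts, and 2, 2, 4 and 0 disome counts in the 4 libraries. HSPA2 had 5.84 and 8.31 footprints per RNA-seq count in the DMSO libraries, where HSPA8 had 1.29 and 1.18. The part of reads from other HSP70 genes in these values was not tested.

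**Figure D1:**
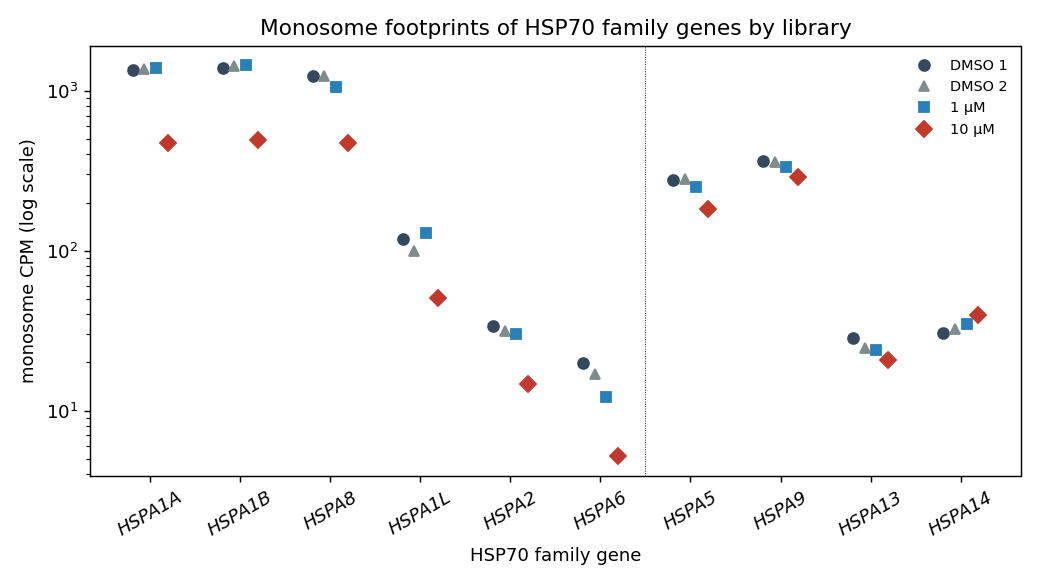
Monosome CPM (log scale) of 10 HSP70 family genes in each of the 4 monosome libraries, 1 point per library. To the left of the dotted line stand the 5 member genes and HSPA1L, whose 10 µM points lie well below the other libraries; to the right HSPA5, HSPA9 and HSPA13 dip less at 10 µM and HSPA14 is highest there.

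Relatives of these genes that are not members are given for scale and were chosen after their values were seen. HSPA1L, beside HSPA1A in the genome, had 118.2 and 98.9 CPM under DMSO, 129.9 at 1 µM and 50.3 at 10 µM. It missed the rule by its second DMSO library, at a difference of -0.98. HSPA5, the chaperone of the endoplasmic reticulum, had 278.1 and 279.3 CPM under DMSO, 250.2 at 1 µM and 182.3 at 10 µM, a mean log2 difference of -0.61. HSPA9, the mitochondrial form, differed by -0.34, and HSPA14, which works at the ribosome, by 0.33. HSP90AA1, the inducible cytosolic HSP90, went from 1614.1 and 1615.4 CPM to 1252.6 CPM at 10 µM, a mean log2 difference of -0.37. The co-chaperones DNAJB1 and HSPH1 differed by -0.40 and -0.08. Of the other chaperone genes looked up, HSP90AB1 and HSPD1 differed by -0.47 each, HSPA13 by -0.34 and DNAJA1 by -0.33. HSPE1 and HSPA4L differed by -0.15 each, BAG3 by -0.12 and HSPA4 by -0.01. Among the relatives looked up, HSPA1L stood lowest, and the difference between members and relatives was not tested. HSPA1L had 4.04 and 4.75 footprints per RNA-seq count in the DMSO libraries. The part of reads from other HSP70 genes in its values was not tested either.

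**Figure D2:**
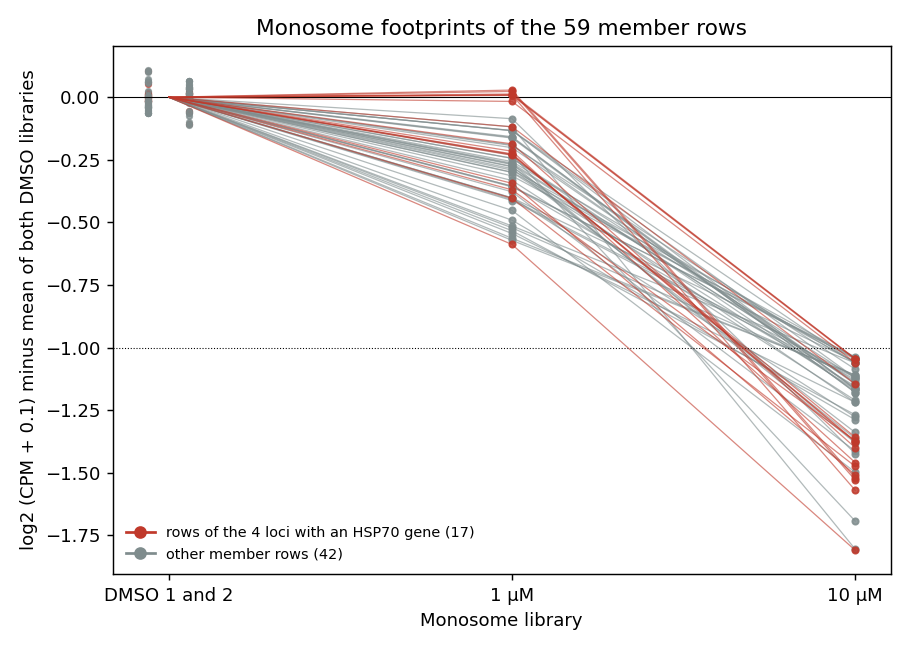
Log2(CPM + 0.1) of each of the 59 member rows minus its mean over both DMSO libraries, with red for the 17 rows of loci that hold an HSP70 gene and grey for the other 42. Lines run from the DMSO mean to 1 µM and 10 µM, the dotted line marks the rule's limit of 1, and most rows sit between 0 and -0.60 at 1 µM.

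EIF5 encodes eIF5, which makes eIF2 hydrolyse GTP once the start codon has been found. It had 41.1 and 35.3 monosome CPM under DMSO, 35.1 at 1 µM and 10.8 at 10 µM, 3.49-fold lower. TNFRSF10D had 16.3 and 17.2 CPM under DMSO, 14.2 at 1 µM and 5.10 at 10 µM, 3.23-fold lower. For both genes the 1 µM library lay close to the DMSO pair. TNFRSF10B, a signalling TRAIL receptor that is not a member, differed by -0.16 at 10 µM on the log2 scale.

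Several members serve the mitochondrion. COX6A1, a subunit of cytochrome c oxidase, had 152.5 and 155.9 CPM under DMSO, 129.0 at 1 µM and 73.8 at 10 µM. ATP5MC1, 1 of the genes for the c-ring subunit of ATP synthase, had 62.3 and 61.4 CPM under DMSO, 50.2 at 1 µM and 27.5 at 10 µM. The c-ring genes ATP5MC2 and ATP5MC3, which encode the same mature protein and are not members, differed at 10 µM by -0.52 and -0.03. NNT, which makes NADPH from NADH across the inner membrane, had 41.9 and 44.1 CPM under DMSO, 33.6 at 1 µM and 20.8 at 10 µM. MTIF2, the mitochondrial translation initiation factor, had 12.1 and 12.5 CPM under DMSO, 11.2 at 1 µM and 5.83 at 10 µM. In each of these genes the 1 µM value lay between the DMSO pair and the 10 µM value.

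The other named members have separate roles. ATN1, a nuclear corepressor whose repeat expansion causes dentatorubral-pallidoluysian atrophy, had 14.9 and 15.1 CPM under DMSO, 12.2 at 1 µM and 7.24 at 10 µM. CDC42BPA, a kinase that acts downstream of CDC42 on the actin cytoskeleton, had 14.7 and 15.4 CPM under DMSO, 13.5 at 1 µM and 6.59 at 10 µM. PPDPF had 15.7 and 14.5 CPM under DMSO, 12.4 at 1 µM and 6.42 at 10 µM. These 3 kept the order of DMSO, 1 µM and 10 µM.

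Over the 59 rows, the mean log2 difference at 10 µM ran from -1.81 to -1.04 with a median of -1.17, where all rows of at least 10 CPM had a median of -0.01. These values chose the members and carry no test. EdgeR's fit of the same contrast placed each member on the lower side, which the rule had fixed in advance. Just inside the limit, the differences from the nearer DMSO library were -1.0078 in a row of 1476 codons, -1.0053 in NNT and -1.0052 in a row of 574 codons. The nearest rows outside it had differences of -0.9997, -0.9945 and -0.9933, and the second of these lies in the HSPA8 run. Member rows held 48 to 1733 codons with a median of 387, against 360 for all rows of at least 10 CPM. Their mean level ran from 10.1 to 1187.8 CPM, and 23 of them were under 20 CPM.

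At 1 µM the members were compared with the same DMSO libraries that the rule used, so these values stand beside the 10 µM values and lend them no support. Of the 59 rows, 53 lay below both DMSO libraries, where 43.1% of all rows of at least 10 CPM did so. The mean log2 difference ran from -0.59 to 0.03 with a median of -0.27, against -0.02 over all rows of at least 10 CPM. HSPA6 marked the lower end and HSPA1B the upper. Only 5 rows lay more than 0.5 below both controls, beside 0.127% of all rows, and no row of either set lay more than 1 below both. In each of the 59 rows the 10 µM value was lower than the 1 µM value.

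The rule also favours rows whose DMSO values are high, which tilts a comparison of 1 µM with the same DMSO libraries towards lower values, so the following calls are a description. EdgeR's quasi-likelihood test called 27 of the 59 rows lower at 1 µM, from 11 of the 32 loci, and 0 higher. It called 0.729% of all 55409 rows lower and 1.05% higher, and 2.15% and 2.79% of the 16518 rows of at least 10 CPM. DESeq2 called 9 of the 59 lower. The named genes called by edgeR were HSPA8 (log2 fold change -0.23), HSPA6 (-0.59), NNT (-0.36), COX6A1 (-0.26) and ATP5MC1 (-0.30). For HSPA1A the edgeR value was 0.02, for EIF5 -0.12 and for TNFRSF10D -0.24, none of them called.

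**Figure D3:**
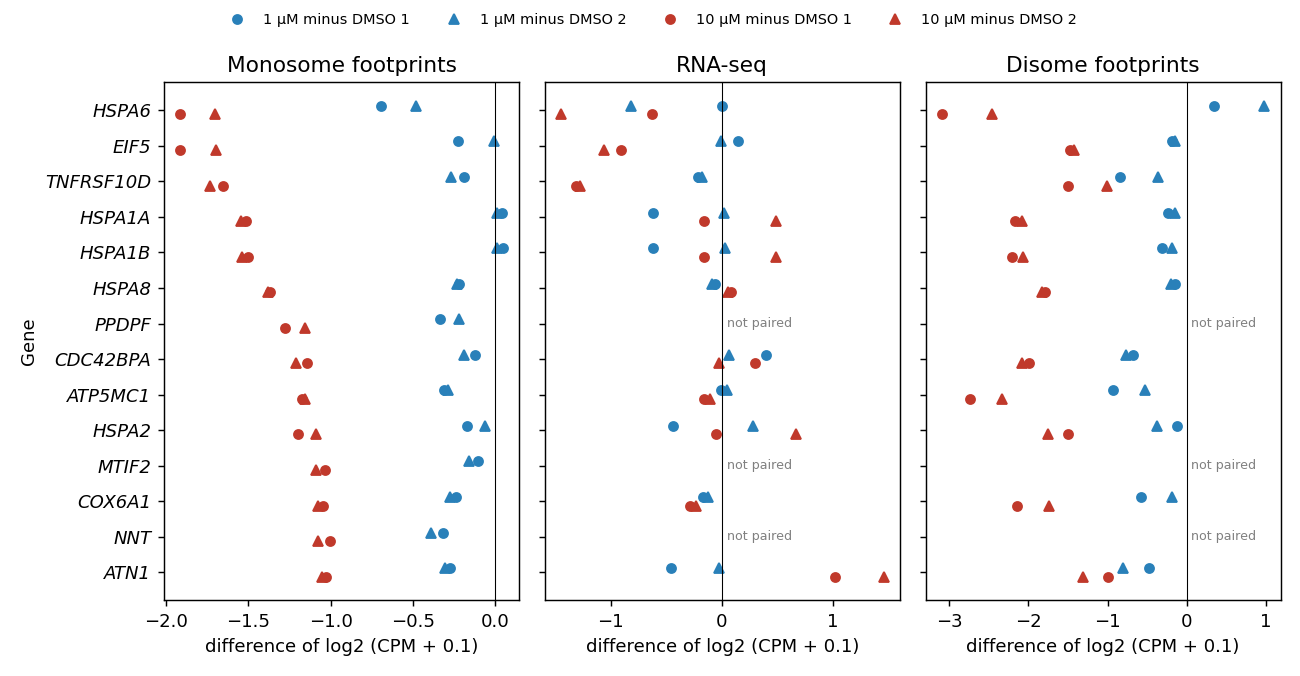
Difference of log2(CPM + 0.1) between each girolline library and each DMSO library for the 14 named genes, in monosome, RNA-seq and disome libraries, with blue for 1 µM and red for 10 µM. Monosome and disome points at 10 µM lie left of 0 for each gene shown, while RNA-seq points do so for both controls only in HSPA6, EIF5, TNFRSF10D, ATP5MC1 and COX6A1; the HSPA6 disome points rest on counts of 0 to 4.

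The next comparison asked whether the mRNAs of the members moved too. RNA-seq and disome tables use other transcript IDs, and their rows were paired with monosome rows wherever 5 consecutive coding lengths matched in a stretch found once in each table. This gave a partner to 41 member rows in 22 loci, among them 11 named genes. The rule used no value of the RNA-seq or disome libraries. The labels do not say whether libraries of different kinds came from the same cultures, so a deviation of a culture that all 3 kinds share cannot be told apart from the dose. PPDPF, MTIF2 and NNT had no partner and their mRNA was not analysed here.

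Most member mRNAs did not pass the quasi-likelihood test of edgeR at 10 µM. It called 2 of 41 rows lower, where it called 0.571% of 56229 rows, and 1 higher, where it called 0.537%. Among paired rows of at least 10 monosome CPM that are not members these shares were 1.46% and 0.861% of 8367. The median log2 fold change of the 41 rows was 0.06, against -0.01 over all rows tested. At 1 µM edgeR and DESeq2 both called 0 of the 41, and edgeR called 0 of all 56229 rows. An unadjusted p under 0.05 was found in edgeR for 3 of the 41 and for 38 of 8489 paired rows of at least 10 monosome CPM. The 3 rows were those of the HSPA1A and HSPA1B locus, which share reads and whose DMSO pair differed. The chi-square per degree of freedom of the DMSO pair was 6.47 in RNA-seq, against 1.69 in monosomes and 2.11 in disomes. The RNA-seq test can therefore miss changes, and a row that did not pass is not shown to be unchanged.

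The mRNAs that fell belonged to EIF5 and TNFRSF10D. In bulk RNA, fewer cells with an mRNA and less of it per cell cannot be told apart. EIF5 had 98.0 and 109.3 RNA-seq CPM under DMSO, 108.4 at 1 µM and 52.3 at 10 µM. At the higher dose its log2 change was -1.03 (SE 0.19, adjusted p = 2.28e-05 by edgeR). TNFRSF10D had 15.1 and 14.7 CPM under DMSO, 12.99 at 1 µM and 6.01 at 10 µM, that is a log2 change of -1.35 (SE 0.25, adjusted p = 3.73e-05 by edgeR). In both genes the 3 other libraries lay together and the 10 µM library stood alone below them. The monosome differences of -1.80 and -1.69 were larger than these mRNA changes, though the difference between the kinds was not tested.

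The mRNA of ATN1 rose while its footprints were lower. It had 6.01 and 4.41 RNA-seq CPM under DMSO, 4.34 at 1 µM and 12.3 at 10 µM, from 159, 151, 138 and 284 counts. The log2 fold change was 1.20 (SE 0.25, adjusted p = 0.000461 by edgeR). No DESeq2 result for ATN1 was kept at 10 µM, so this rise rests on edgeR alone. In this gene the 10 µM library was the highest in RNA-seq and the lowest in monosomes.

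No HSP70 mRNA passed the test at 10 µM. HSPA8 had 834.3 and 847.6 RNA-seq CPM under DMSO, 799.6 at 1 µM and 882.9 at 10 µM, that is a log2 change of 0.03 (SE 0.15, adjusted p = 0.975 by edgeR). HSPA1A had 716.7 and 459.3 CPM under DMSO, 466.2 at 1 µM and 643.1 at 10 µM, so the DMSO pair itself was wide. Its log2 fold change was 0.09 (SE 0.15, adjusted p = 0.907 by edgeR). HSPA1A and HSPA1B lost their partner when 8 matching lengths were asked for in place of 5, and HSPA8 kept its own. Outside the members, HSPA1L, HSPA14 and HSPA4L lost theirs too. HSPA2 rested on 135, 105, 119 and 114 RNA-seq counts and did not pass the test (log2 fold change 0.25, adjusted p = 0.842 by edgeR). HSPA6, on 5, 14, 6 and 2 counts, had the lowest value of any member and did not pass either (log2 fold change -1.83, SE 1.13, adjusted p = 0.607 by edgeR). The signs for HSPA1A, HSPA1B and HSPA2 depended on the DMSO library: against the first alone their log2 CPM differences were -0.16, -0.16 and -0.05.

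COX6A1 had 69.6 and 67.2 RNA-seq CPM under DMSO, 61.8 at 1 µM and 57.2 at 10 µM (log2 fold change -0.30, adjusted p = 0.613 by edgeR). ATP5MC1 had 42.1 and 40.6 CPM under DMSO, 41.95 at 1 µM and 37.7 at 10 µM (log2 fold change -0.17, adjusted p = 0.834 by edgeR). CDC42BPA had 44.0 and 55.2 CPM under DMSO, 57.8 at 1 µM and 54.3 at 10 µM. The 10 µM values of COX6A1 and ATP5MC1 were the lowest of their libraries by a small margin, and that of CDC42BPA lay inside its DMSO pair.

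**Figure D4:**
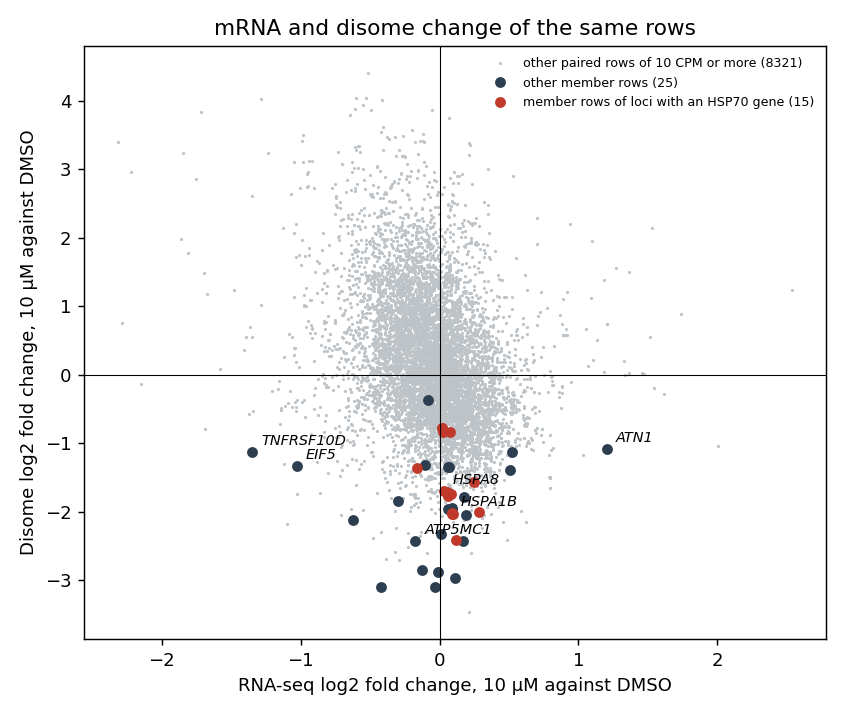
RNA-seq log2 fold change against disome log2 fold change at 10 µM, both by edgeR, for 40 member rows (red in loci with an HSP70 gene, dark blue otherwise) and 8321 other monosome rows of at least 10 CPM with a partner tested in both kinds (grey). The 40 members lie below 0 in disomes at -0.37 to -3.10, most of them near 0 in RNA-seq, with EIF5 and TNFRSF10D to the left and ATN1 to the right.

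Disome footprints of the members fell with 10 µM girolline. EdgeR's quasi-likelihood test called 39 of the 40 rows tested lower and 0 higher, from 20 of 21 loci, where it called 14.9% of 34606 rows lower and 20.8% higher. Among paired rows of at least 10 monosome CPM that are not members it called 19.7% of 8148 lower and 29.0% higher. The members' median log2 fold change was -1.81 and their range -3.10 to -0.37, against a median of -0.02 over all rows tested, and 35 of the 40 lay below -1. Without the loci that hold an HSP70 gene, 24 of 25 rows were called lower. The row that did not pass had 533 codons and a log2 fold change of -0.37 (adjusted p = 0.474 by edgeR).

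HSPA1A had 6176 and 9722 disome counts under DMSO, 7986 at 1 µM and 2593 at 10 µM, which are 2332, 2198, 1972 and 520.2 CPM. At the higher dose its log2 change was -2.02 (SE 0.12, adjusted p = 9.03e-57 by edgeR). HSPA8 had 2389.7 and 2464 disome CPM under DMSO, 2146 at 1 µM and 691.7 at 10 µM, that is a log2 change of -1.70 (SE 0.12, adjusted p = 8.59e-44 by edgeR). In both genes the 1 µM library lay close under the DMSO pair and the 10 µM library far below it. HSPA2 fell too, on 20 and 40 counts under DMSO, 28 at 1 µM and 13 at 10 µM (log2 fold change -1.57, adjusted p = 0.0019 by edgeR). Outside the members, HSPA1L, HSP90AB1, HSP90AA1 and DNAJA1 had disome log2 fold changes of -2.00, -1.64, -1.41 and -0.72 in the edgeR fit. In the same fit BAG3, DNAJB1, HSPA5 and HSPA4L had -0.49, -0.40, -0.25 and -0.05. HSPA13 and HSPA14 were higher, by 0.58 and 0.90.

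Among the other named genes, ATP5MC1 had 26.1 and 19.7 disome CPM under DMSO, 13.6 at 1 µM and 3.81 at 10 µM, from 69, 87, 55 and 19 counts. Its log2 fold change was -2.44 (adjusted p = 7.37e-11 by edgeR). COX6A1 had 172.9 and 131.6 disome CPM under DMSO, 115.3 at 1 µM and 39.1 at 10 µM (log2 fold change -1.85, adjusted p = 6.03e-17 by edgeR). Both showed the order of DMSO, 1 µM and 10 µM that their monosomes had. CDC42BPA (62, 110, 59 and 29 counts) changed by -1.94 (adjusted p = 1.95e-08) and EIF5 (86, 139, 115 and 58 counts) by -1.34 (adjusted p = 1.16e-05) in edgeR's fit. TNFRSF10D (32, 38, 27 and 21 counts) and ATN1 (32, 67, 35 and 30 counts) gave -1.13 (adjusted p = 0.011) and -1.09 (adjusted p = 0.0038) by edgeR. DESeq2 did not call either of these genes (adjusted p = 0.388 and 0.358).

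The deepest disome falls lay on rows without a gene name. ENST00000478547.1, of 50 codons, had 194 and 333 disome counts under DMSO, 164 at 1 µM and 40 at 10 µM, that is a log2 change of -3.10 (SE 0.28, adjusted p = 9.13e-26 by edgeR). Its monosome level was modest, at 14.0 and 12.98 CPM under DMSO, 11.2 at 1 µM and 6.09 at 10 µM. It had 59.5 and 92.8 disome counts per 100 monosome counts in the 2 DMSO libraries, where HSPA8 had 22.2 and 31.9. The deposited length is 10 codons under the coding length for monosomes but not for disomes. This can raise the ratio in short rows, and its part here was not tested. A row of 214 codons also had -3.10, from 205, 318, 178 and 40 disome counts. ENST00000476462.5, of 137 codons, went from 180 and 230 disome counts under DMSO through 202 at 1 µM to 37 at 10 µM (log2 fold change -2.89, adjusted p = 2.07e-21 by edgeR). Its monosome CPM were 32.1 and 31.1 under DMSO, 26.1 at 1 µM and 12.2 at 10 µM, while its RNA-seq CPM stayed within 19.1 and 21.2. In these rows the 10 µM library was lowest in both kinds of footprint.

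At 1 µM, edgeR called 5 of 40 member rows lower in disomes, from 4 loci, against 1.68% of 34606 rows, and 0 higher, against 5.39%. Among paired rows of at least 10 monosome CPM that are not members these shares were 2.26% and 9.24%. The members' median was -0.34, and 35 of the 40 lay under 0. The 5 rows included ENST00000478547.1 (log2 fold change -0.81, adjusted p = 0.00967 by edgeR). A row of 1301 codons had -0.92 (adjusted p = 0.00242) and a row of 382 codons -0.66 (adjusted p = 0.013) in the same edgeR fit. The other called rows were that of 214 codons and an ATP5MC1 isoform of 111 codons, and no row of a locus with an HSP70 gene was called at this dose. DESeq2 called 0 of the 40.

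In the DMSO libraries, the log2 ratio of disome to RNA-seq CPM had a median of 0.96 over 40 member rows and 0.88 with 1 row per locus, against -0.29 over 8402 paired rows of at least 10 monosome CPM. Without the loci that hold an HSP70 gene the median over the 25 remaining member rows was -0.55. These rows repeat some loci, with 4 rows from that of CDC42BPA. The median with 1 row per locus was not taken without the HSP70 loci. The side of 0 thus depends on which rows are counted, and the part of the HSP70 loci in it was not tested. RNA-seq and disome counts cover coding regions trimmed by different lengths, which touches short rows most.

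The HSPA8 locus held 12 member rows, the most of any locus, and of the rows of at least 10 CPM in its span 12 of 13 were members. Its rows differed in disome load. Rows of 151 and 223 codons had 34.9 and 35.9 disome counts per 100 monosome counts in the first DMSO library and 50.7 and 49.9 in the second. The full-length row of 647 codons had 22.2 and 31.9, and the row of 312 codons 13.9 and 21.4. The 4 rows of 172 to 187 codons had the fewest, for example 5.86 and 8.11 in the row of 184 codons. These ratios are of raw counts, so library depth sets their level, and only rows within a library can be compared.

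Among the member rows with a partner, these 4 disome-poor rows also showed the smallest changes. The order did not hold throughout, since the row of 312 codons had a monosome difference of -1.46. A row of 168 codons in the HSPA8 run is not included. It missed the rule with differences of -0.9945 and -1.0678 from the 2 DMSO libraries. The rule's limit of 1 thus bounds the smallest monosome changes given here. Over the 4 rows of 172 to 187 codons, the monosome difference at 10 µM lay between -1.06 and -1.04, and at 1 µM between -0.02 and 0.01. In the other 8 member rows of the locus, the monosome difference lay between -1.51 and -1.36 at 10 µM and between -0.40 and -0.19 at 1 µM. Disome log2 fold changes at 10 µM were -0.84 to -0.78 in the disome-poor rows and -2.03 to -1.36 in the 7 other rows with a partner, all called lower by edgeR. RNA-seq counts of the row of 151 codons and the row of 184 codons were alike, at 5338 and 5502 in the first DMSO library. The rows overlap in sequence, no positions are in the tables, and the difference between the rows was not tested.

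**Figure D5:**
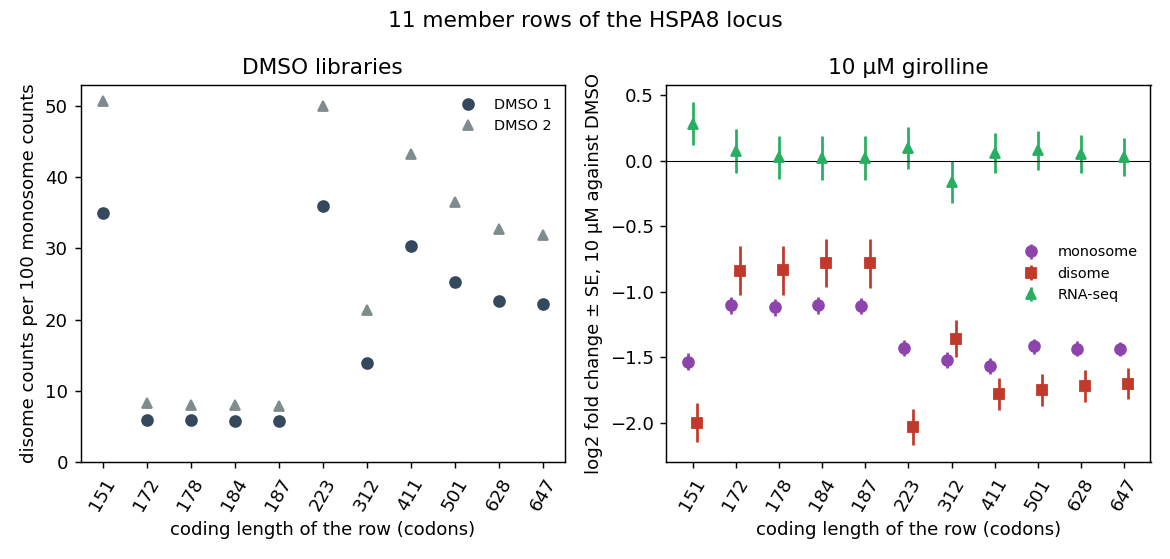
Left, disome counts per 100 monosome counts in the 2 DMSO libraries for 11 member rows of the HSPA8 locus, by coding length in codons. Right, edgeR log2 fold change at 10 µM against DMSO, with an SE derived from the F value, for monosomes (purple), disomes (red) and RNA-seq (green). The 4 rows of 172 to 187 codons have the fewest disomes and the smallest monosome and disome changes.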

How the data were processed

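RNA-seq, monosome and disome libraries of HEK293T Flp-In cells were analysed, 4 of each kind. The authors deposited raw read counts per transcript with a length value, in 1 table per library. The submitters' processing notes list hg38, CASAVA 1.8 and STAR 2.7.0a; the counting tool, annotation and treatment of reads with several matches are not given in the sources used here. Coding length was taken as the deposited length plus 10 (monosome) or 20 (RNA-seq), and as the deposited length itself for disomes. Rows with identical counts within a kind were merged. CPM used column totals over merged rows and a pseudocount of 0.1.

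The members, gene lists and tests were chosen with earlier results of these data known. All named members are reported; relatives of the members were looked up after values were seen. Symbols rest on known Ensembl transcript IDs and matching coding lengths, not on a table, and the gene lists planned for use with such a table were not used. RNA-seq and disome rows, which had been planned to be matched by gene, were paired instead by runs of 5 equal consecutive coding lengths that occur once in each table. Of 40252 such runs 40246 kept one order, and 53299 rows were paired. Their Pearson correlation across rows was 0.934 between monosome and RNA-seq log2 raw counts of the first DMSO libraries.

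For each kind, edgeR 4.0.16 under R 4.3.3 was run on the counts (TMM, filterByExpr, quasi-likelihood test, Benjamini-Hochberg adjustment over all rows, FDR 0.05). With 3 groups among 4 libraries, 1 degree of freedom was left, the DMSO pair alone gave the spread, the single library of a dose was taken to vary as much, and changes are relative to the other rows of a library. Each SE given with an edgeR value was derived as the absolute log2 fold change divided by the square root of the test's F value. The scripts were tested on simulated data. DESeq2 1.42.0, other scalings and filters, other CPM minimums, and leaving out a DMSO library were alternatives. Runs of 8 lengths, 1 row per locus and leaving out the HSP70 loci were added after the data had been seen. Python 3.11.15, pandas 2.3.3, numpy 2.4.6 and matplotlib 3.10.9 were used.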

Additional observations from a re-analysis of the deposited data

How the results depend on the processing

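Of 320 settings compared, 292 left a result on its side of the threshold or within its spread, and none reversed the direction of a called result. Some of these outcomes were fixed by the rule, such as the lower side of the members in monosomes at 10 µM. The tally is therefore no measure of robustness. Uncalled RNA-seq values did change sign when a DMSO library was left out. At 10 µM these were HSPA1A (-0.16), HSPA1B (-0.16) and HSPA2 (-0.05) without the second, and CDC42BPA (-0.02) without the first. At 1 µM, without the first, they were HSPA1A (0.02), HSPA1B (0.03), HSPA2 (0.28), EIF5 (-0.01) and ATP5MC1 (0.05). The number of members was 124 with a minimum of 5 CPM, 36 with 20 CPM and 14 with 1 row per block of 10 rows, where 59 was the reported count. A pseudocount of 1 kept 46 of the 59, and without merging identical rows 50 rows passed. All 59 remained with TMM scaling (80 rows passed), and without the first (76) or second (79) DMSO library. These settings loosen the rule, so they could hardly remove a member and do not test the set. The rule asks for both DMSO libraries, and the TMM factor was 1.03 for the 10 µM library against 0.99 for each DMSO library. Across all rows, DESeq2 called 2222 lower and 1292 higher in monosomes at 10 µM, and 78 and 180 at 1 µM. It called 123 lower and 102 higher in RNA-seq at 10 µM, and in disomes 931 and 1660 at 10 µM and 10 and 269 at 1 µM. Among the members it called 9 lower in monosomes at 1 µM, 0 higher in RNA-seq at 10 µM and 0 lower in disomes at 1 µM. The cause was not tested. For ATN1 in RNA-seq at 10 µM no DESeq2 result was kept, so the count there does not speak to that gene. With 1 row per locus, 11 were called lower in monosomes at 1 µM, and in disomes 20 at 10 µM and 3 at 1 µM; without HSP70 loci, 24 were called lower in disomes at 10 µM. These fewer calls come from fewer rows. Leaving out either DMSO library, the members' median log2 CPM difference was -1.21 to -1.19 in monosomes at 10 µM, -0.28 to -0.27 at 1 µM, 0.0588 to 0.0817 in RNA-seq at 10 µM, and -0.0513 to -0.0111 at 1 µM. No paired analysis was possible because each dose has 1 library, so the groups share fewer than 2 replicate numbers. Low disome counts limited HSPA6, TNFRSF10D, ATN1 and HSPA2.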
